A study of Mus musculus with 9 samples.

Results

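iNKT1 cells taken from the liver were compared with iNKT1 cells taken from the thymus, using 3 liver and 3 thymus libraries of the 9 RNA-seq libraries in the series. The remaining 3 libraries are from spleen. They entered the fit and so its estimate of the spread between libraries, and their values are given only beside the results. Libraries were chosen by their tissue label, and genes were kept when the deposited value was at least 1 in at least 3 of the 6 libraries, which left 12443 of 14004 genes. All mice were C57BL/6, carried Tbx21CreTg;Rosa26-LSL-YFP+/+ and were untreated, so liver, thymus and spleen groups share the same Cre transgene and reporter. Cre under Tbx21 control turns on YFP for good, so the reporter marks cells that express T-bet or did so earlier. The labels give 3 independent replicates per tissue but no age, sex or pooling of animals, so p-values measure the spread between these libraries.

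Invariant NKT cells are lymphocytes whose nearly fixed T cell receptor recognises lipids held by CD1d. They are selected in the thymus, where the iNKT1 subset acquires T-bet, dependence on interleukin-15 and many receptors shared with NK cells, and where part of it stays as long-lived residents. In mouse liver, iNKT1 cells are abundant and patrol the sinusoids, and CXCR6 is known for keeping them there.

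Recovered reads per library were 31579294, 27679293 and 3878084 in liver replicates 1, 2 and 3, and 25024424, 27706136 and 18506598 in thymus replicates 1, 2 and 3. Liver replicate 3 was therefore the shallowest, with 1 read worth 6.04 units of the deposited value. The variance around the tissue mean was 5.06 in thymus, against 2.15 in liver. Libraries numbered 2 held high Xist, 84543 in liver and 96505 in thymus, with 21 and 8 reads from Y-linked genes. Thymus replicate 3 held both signals, with Xist at 16531 and 7016 Y-linked reads.

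The libraries carried the transcripts that define the labelled cells. Cd3e, a chain of the T cell receptor complex, lay at 41314, 46800.2 and 40033 in liver and 45627, 25808 and 36304 in thymus. Tbx21, which encodes T-bet, lay at 2353, 3513 and 2321 in liver and 1386, 5762 and 1868 in thymus. Zbtb16, which encodes the NKT lineage factor PLZF, lay at 1216, 2288 and 1230.5 in liver and 1661, 2905 and 3305 in thymus. The liver and thymus values overlapped for all 3 genes. Not every gene on the iNKT1 and T cell identity list overlapped, though none of its 14 genes passed. Of the 14, 4 were higher in liver without overlap, Il2rb and Cxcr3 among them, and 2 were lower. Over all tested genes these shares were 9.54% and 6.13%. In a bulk library, fewer cells of a type and less RNA per cell cannot be told apart.

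Transcripts listed as markers of other cell types were also present. No member of the hepatocyte, B cell, myeloid or NK cell lists passed the test between liver and thymus. The 10 hepatocyte genes in the table, which encode plasma proteins, summed to 1659, 1892 and 1489 in liver and 110, 868 and 294 in thymus. Most of this sum was Alb, encoding albumin, at 1288, 1588 and 1172 in liver. Ahsg, Fga and Fgb had no reads in any thymus library, and of 7 tested members 4 were higher in liver without overlap and 1, Trf (transferrin), was lower without overlap. The 9 B cell genes summed to 8808, 7132 and 5947 in liver and 3157, 5658 and 4306 in thymus, mostly Ighm. These sums did not overlap, and Cd79b had no reads in thymus. Of 6 tested B cell genes, 4 were higher in liver without overlap and 0 lower. Over all tested genes, 9.54% were higher and 6.13% lower without overlap. The 3 liver endothelial genes in the table summed to 948, 461 and 624 in liver and 302, 74.1 and 218 in thymus, also without overlap. Their spleen sums were 404, 1336 and 1032, so high sums were not particular to liver. Of 2 tested members, 1 was higher in liver than in thymus without overlap. The 7 myeloid and Kupffer cell genes summed to 1298, 36.8 and 649.5 in liver and 315, 10.6 and 99.4 in thymus, with Adgre1 and C1qc at no reads in all 6 libraries, and these sums overlapped between the tissues. The NK cell and ILC1 genes summed to 26447, 14470.4 and 12821 in liver and 26843, 34252 and 18628 in thymus, and these sums overlapped too. Because iNKT1 cells share many receptors with NK cells, these sums cannot tell the cell types apart. Of the 10 NK cell and ILC1 genes, 5 fitted changes were above 0 and 5 below, 2 genes (Ncr1 and Tnfsf10) were higher in liver without overlap and 3 (Fcer1g, Klrc2 and Cd7) lower. Ncr1 had no thymus reads while liver held 616, 13.7 and 131. Rag1, the recombinase of immature thymocytes, was at 486 in thymus replicate 3 and had no reads in the other 5 libraries, and Arpp21 was at 153 there. The part of these transcripts in the results below was not tested.

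Of the 12443 genes, 44 (0.354%) passed an adjusted p of 0.05 by limma-trend with Benjamini-Hochberg adjustment, in 1 fit over all 9 libraries. In liver, 27 genes were higher (0.217%) and 17 were lower (0.137%). All 44 had liver and thymus values that did not overlap, a pattern shown by 15.7% of the tested genes (9.54% higher, 6.13% lower). Before adjustment, 1527 genes had a p under 0.05. A fit over the 6 liver and thymus libraries alone called 12 genes, all among the 44, of which 3 were higher and 9 lower. Leaving out liver replicate 1, 2 or 3 left 9, 7 and 7 calls, and leaving out thymus replicate 3 gave 159. Trimmed-mean scaling of the values gave 19 higher and 19 lower. Of the 44 genes, 5 passed in all 9 fits without 1 library, and 10 passed in fewer of the 23 alternatives than not: Nt5e, Ms4a6d, Tspan13, Il18rap, Tefm, Tgfa, Ccr8, Ly6a, Apol9a and Klrk1. Fold changes are liver minus thymus on log2(value + 1), which understates low genes, and the median over all genes was 0.27. Other scalings moved that median, and the medians of 21 of the 55 gene lists examined changed sign in at least 1 of 5 scalings or tools. Apart from the purinergic list, those medians were between -0.12 and 0.39, so no direction is read from the cytokine receptor, JAK/STAT/SOCS, adhesion, lineage factor, interferon-stimulated, ribosomal protein, respiratory chain and splicing medians, which were among them.

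**Figure D1:**
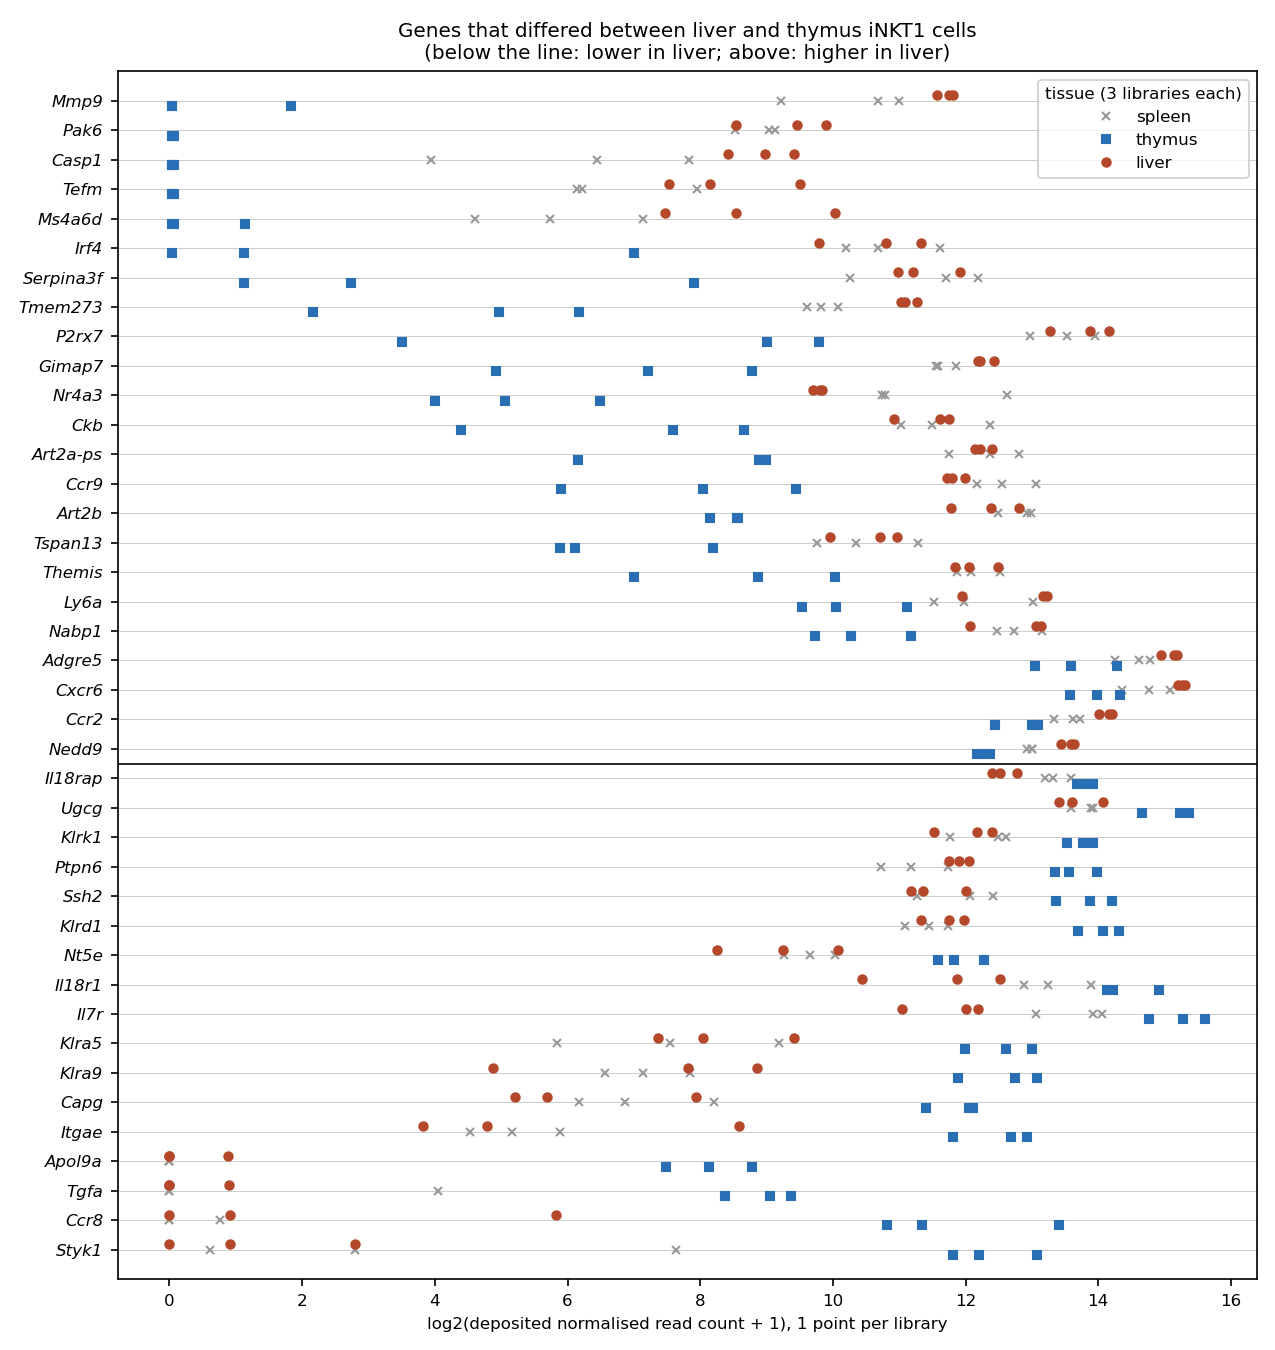
Deposited normalised read count on a log2(value + 1) axis for 40 of the genes that passed the test, 1 point per library (circles liver, squares thymus, crosses spleen; 3 each). The 23 genes above the line were higher in liver and the 17 below it were lower, and no liver point crosses a thymus point of the same gene.

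Cytokine receptor genes were among the most abundant falls. Of 23 tested genes on the cytokine receptor list, 3 fell in liver and none rose, against 0.137% and 0.217% of all tested genes. Without overlap, 4 were lower and 3 higher, against 6.13% and 9.54% of all tested genes. The list median was 0.09. Il7r encodes the alpha chain of the interleukin-7 receptor, which supports T cell survival. Its values were 4131, 4674 and 2109 in liver and 39747, 50118 and 27831 in thymus. Every liver library was far below every thymus library, and spleen lay between, at 15547, 17003 and 8546. The log2 fold change of Il7r was -3.47 ± 0.34 (SE, n = 3 per tissue; limma-trend adjusted p = 0.000221), a 10.8-fold lower mean.

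Both chains of the interleukin-18 receptor fell, though the Il18rap call held in 8 of 23 alternatives and in 1 of the 9 fits without 1 library. Il18r1, the binding chain, lay at 3763, 5889 and 1382 in liver and 19076, 30824 and 17916 in thymus, a log2 change of -2.81 ± 0.44 (limma-trend adjusted p = 0.0122). Il18rap, the accessory chain, lay at 5874, 7002 and 5397 in liver and 14636, 15469 and 13095 in thymus. Its log2 change was -1.25 ± 0.23 (limma-trend adjusted p = 0.0284). The genes are neighbours, within chr1:40465552-40551705 (GRCm38), and for each the liver values also lay below all 3 spleen values. Il2rb, the chain shared by the interleukin-2 and interleukin-15 receptors, went the other way without passing: 61549, 71229.7 and 67939.9 in liver against 38659, 36385 and 40797 in thymus (log2 0.79 ± 0.17, limma-trend adjusted p = 0.067). Il15ra was at 411, 454 and 467 in liver and 19.1, 12.8 and 194 in thymus (log2 3.56 ± 1.21, limma-trend adjusted p = 0.262).

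Some feedback inhibitors of cytokine signalling, Socs2, Socs3 and Cish, had values that did not overlap, while Socs1, Socs4, Socs5, Socs6 and Socs7 overlapped, and none passed the test. Socs2 lay at 4071, 3338 and 2775 in liver and 405, 932 and 836 in thymus (log2 2.30 ± 0.48, limma-trend adjusted p = 0.0612). Socs3 lay at 197, 233 and 569 in liver and 0.0212, 0.0273 and 5.07 in thymus (limma-trend adjusted p = 0.0601). Of 21 tested JAK, STAT and SOCS genes, 4 did not overlap, all higher in liver, against 9.54% of all tested genes. The fourth was the kinase gene Jak2, and the list median was 0.12.

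Promoters of 3 of the receptor genes that fell are shown beside that of Cxcr6, which rose. These genes were picked from the calls without a rule, and whether they are regulated together was not tested. The promoters are RefSeq sequences on GRCm38.p6, from 250 bases before to 50 after a start site, 5′ to 3′ on the gene's strand. Capitals mark TGTGGTT, the core RUNX motif, or its reverse complement AACCACA, and TTCNNNGAA, the STAT motif called GAS. Il7r is at chr15:9529827-9530126 (minus strand), Il18r1 at chr1:40465371-40465670, Il18rap at chr1:40515112-40515411 and Cxcr6 at chr9:123806227-123806526 (plus strand).
Il7r: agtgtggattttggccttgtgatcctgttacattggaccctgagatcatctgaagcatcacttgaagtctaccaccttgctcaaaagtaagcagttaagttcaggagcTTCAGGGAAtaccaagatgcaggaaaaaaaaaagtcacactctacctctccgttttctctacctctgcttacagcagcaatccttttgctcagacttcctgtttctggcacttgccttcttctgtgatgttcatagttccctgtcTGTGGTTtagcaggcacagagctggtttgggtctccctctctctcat
Il18r1: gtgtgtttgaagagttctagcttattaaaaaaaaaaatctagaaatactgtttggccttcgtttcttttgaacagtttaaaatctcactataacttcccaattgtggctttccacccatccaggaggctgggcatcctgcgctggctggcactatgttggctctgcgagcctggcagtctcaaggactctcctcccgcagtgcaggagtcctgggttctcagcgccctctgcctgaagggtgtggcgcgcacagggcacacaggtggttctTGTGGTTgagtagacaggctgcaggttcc
Il18rap: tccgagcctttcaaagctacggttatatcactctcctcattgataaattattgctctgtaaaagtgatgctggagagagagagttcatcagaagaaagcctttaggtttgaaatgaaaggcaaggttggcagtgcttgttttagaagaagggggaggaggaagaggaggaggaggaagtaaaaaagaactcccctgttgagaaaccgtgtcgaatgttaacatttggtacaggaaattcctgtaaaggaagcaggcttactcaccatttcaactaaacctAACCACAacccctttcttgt
Cxcr6: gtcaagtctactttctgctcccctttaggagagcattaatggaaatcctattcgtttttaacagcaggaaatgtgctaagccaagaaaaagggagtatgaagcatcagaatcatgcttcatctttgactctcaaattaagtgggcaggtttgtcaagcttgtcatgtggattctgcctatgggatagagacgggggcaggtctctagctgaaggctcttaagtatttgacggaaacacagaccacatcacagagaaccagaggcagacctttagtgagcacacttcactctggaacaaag
RefSeq lists 3 promoters for Il18r1, and the one printed was taken because it holds the RUNX letters. The printed Il18r1, Il18rap and Cxcr6 windows hold no GAS match, and that counted for Il18r1 lies in another of its 3. The RUNX letters were in 4 of the 14 genes with a listed promoter that fell (Il7r, Il18r1, Il18rap and Klrk1) and in 1 of 19 that rose, against 4.70% of tested genes and 5.27% of all 32851 promoters. This motif was singled out after its matches were seen, among 10 motifs searched on both strands. GAS was in 2 of 14 and 3 of 19, against 8.39% of tested genes, and the AP-1 motif TGANTCA in 2 of 14 and 3 of 19, against 5.92%. A match describes letters in this window and is not a site.

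Among NK cell receptor genes, Klrd1, Klrk1, Klra5 and Klra9 fell in liver. Klrd1 encodes CD94, the partner of the NKG2 receptors, and lay at 4044, 2565 and 3447 in liver and 17224, 13285 and 20458 in thymus. No liver library came near the thymus range, and the log2 change was -2.34 ± 0.30 (limma-trend adjusted p = 0.00384). Klrk1 encodes the activating receptor NKG2D and lay at 5394, 4639.6 and 2932 in liver and 14029, 15445 and 11780 in thymus (log2 -1.71 ± 0.31, limma-trend adjusted p = 0.0284). Klrc2, another NKG2 gene, was at 489.8, 780.1 and 619 in liver and 5622, 4490 and 2151 in thymus without passing (limma-trend adjusted p = 0.0565).

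Ly49 receptors, which bind MHC class I, gave the lowest median of the 55 lists, -3.42 over 9 tested members. All 9 fitted changes were below 0, and 2 passed the test, against 0.137% of all tested genes that passed as lower. Of the 9, 8 were lower in liver without overlap, against 6.13% of all tested genes. Klra5 lay at 678, 164 and 262 in liver and 8175, 4081 and 6264 in thymus (log2 -4.27 ± 0.82, limma-trend adjusted p = 0.0394). Klra9 lay at 460.2, 28.3 and 225 in liver and 8606, 6857 and 3794 in thymus (log2 -5.39 ± 0.93, limma-trend adjusted p = 0.0223). Klra1, at 466, 461 and 274 against 2849, 3519 and 2840.4, was also separated but did not pass (limma-trend adjusted p = 0.103). Ly49 genes are near-identical copies, so the split of reads among them is uncertain.

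Between Klrd1 and Klra9, in chr6:129591782-130193112, 16 genes were tested and all had a fitted change below 0, with a median of -2.48. Of these, 4 passed the test as lower and 11 were lower without overlap, against 0.137% and 6.13% of all tested genes. The others, among them Klrc1, Klrc3 and Klri2, overlapped. The region was chosen after its values were seen. Styk1, a receptor-like pseudokinase gene farther along the same chromosome, had the largest fitted fall: 0, 5.98 and 0.889 in liver against 3609.8, 4717 and 8599.9 in thymus (log2 -11.12 ± 1.85, limma-trend adjusted p = 0.0223). Not every NK receptor followed, since Klrb1f lay at 2630, 1203 and 1670.4 in liver and averaged 407 ± 388 in thymus (SD, n = 3) (limma-trend adjusted p = 0.164). The list of NK lectin-like receptors outside the Ly49 family also holds Styk1 and receptors that are not lectin-like, such as Ncr1 and Cd226. Of its 19 tested genes, 3 fell (Klrd1, Klrk1 and Styk1) and none rose, against 0.137% and 0.217% of all tested genes. The median of this mixed list was -0.29 (-0.48 to -0.12 over the 5 scalings or tools).

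**Figure D2:**
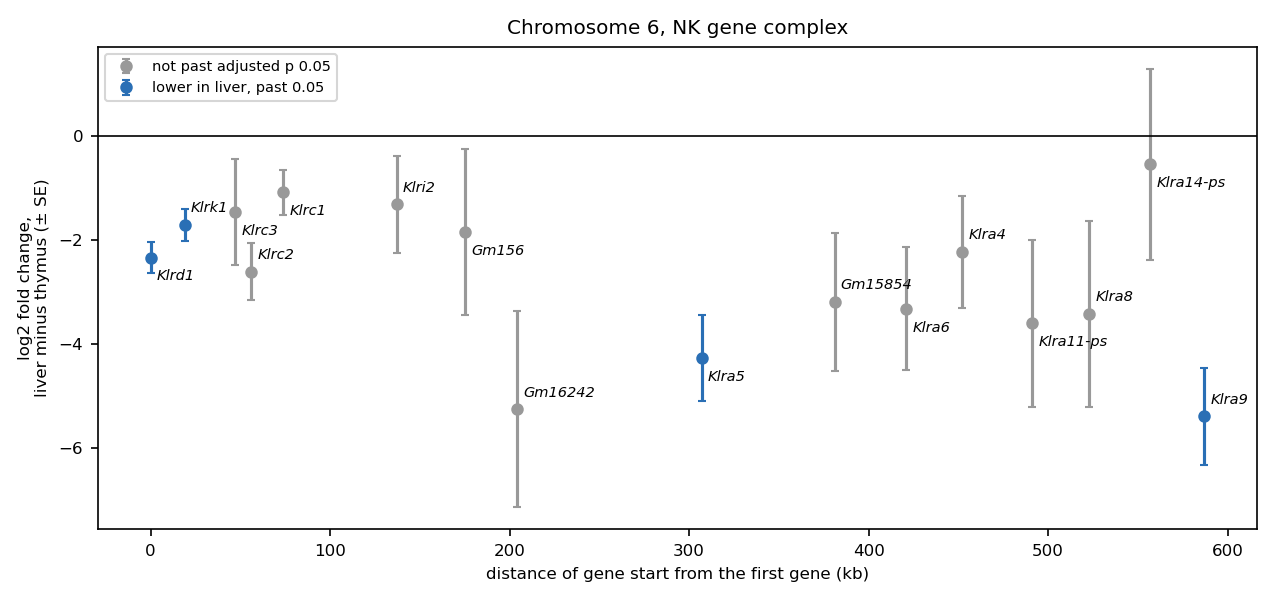
Fitted log2 fold change (liver minus thymus, with SE) of each tested gene against the distance of its start from the first gene, in kb, for the chromosome 6 region (16 genes). All 16 points lie below 0, and 4 of them passed the test.

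Chemokine receptor genes changed in both directions. Of 12 tested, 4 rose and 1 fell, against 0.217% and 0.137% of all tested genes, and the list median was 1.25. Cxcr6 lay at 39291, 37694 and 40589 in liver and 16103, 12203 and 20490.5 in thymus, which put it among the 500 most abundant genes. The liver libraries were close to each other and above every thymus and spleen library (log2 1.30 ± 0.22, limma-trend adjusted p = 0.0223). Ccr2, the receptor for CCL2, lay at 16579, 18386 and 19011 in liver and 8746, 8193 and 5586 in thymus (log2 1.29 ± 0.23, limma-trend adjusted p = 0.0284).

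Ccr9, the receptor for the thymic and gut chemokine CCL25, lay at 3383, 4055 and 3556 in liver and 262, 59 and 693 in thymus (log2 4.04 ± 0.67, limma-trend adjusted p = 0.0223). Thymus libraries were low and scattered for Ccr9, and none reached the liver range.

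Ccr8, the receptor for CCL1, went the opposite way. It lay at 0, 55.8 and 0.887 in liver and 2609.7, 10829 and 1799 in thymus, and spleen was at 0.7, 0 and 0. Liver replicate 2 was the only library outside thymus with more than 1 unit (log2 -9.61 ± 1.85, limma-trend adjusted p = 0.0393). Cxcr3, the receptor for interferon-induced chemokines, lay at 8038, 8499 and 7183 in liver and 7054, 2142 and 2578 in thymus (limma-trend adjusted p = 0.215).

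Adhesion genes and targets of TGF-beta were next. Itgae encodes CD103, the integrin chain that binds E-cadherin and is known to be induced by TGF-beta. It lay at 382, 26.6 and 13.1 in liver and 6590.5, 3586 and 7786 in thymus, a log2 change of -6.75 ± 1.22 (limma-trend adjusted p = 0.0284). Liver replicate 1 was the highest of the liver libraries and still far below thymus. Of 19 integrin chains tested, Itgae alone passed, against 0.354% of all tested genes, and the list median was 0.71. Itga1 lay at 4178, 3052 and 4136 in liver and 8799, 8298 and 7964 in thymus, and Itga4 at 11954, 4032 and 2303 against 566, 981 and 1104, neither passing.

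In the TGF-beta list, 22 genes were tested, 1 rose (Nedd9) and 1 fell (Itgae), against 0.217% and 0.137% of all tested genes. The median was -0.49 (-0.69 to -0.32 over the 5 scalings or tools). Nedd9, a docking protein for integrin signals, lay at 11121, 12304 and 12785 in liver and 4857, 5312 and 4604 in thymus (log2 1.29 ± 0.23, limma-trend adjusted p = 0.0235). Pmepa1, a feedback inhibitor of TGF-beta signals, averaged 62.6 ± 52 in liver (SD, n = 3) and lay at 1245, 4652 and 2029 in thymus (limma-trend adjusted p = 0.102). Skil, another such inhibitor, lay at 1956, 1808 and 1927 in liver and 4944, 5534 and 7899 in thymus (limma-trend adjusted p = 0.131). Of the 22, 7 did not overlap in the lower direction and 2 in the higher, against 6.13% and 9.54% of all tested genes. Adgre5, which encodes the adhesion receptor CD97, rose: 31545, 36310 and 37422 in liver against 20019.5, 8484 and 12393 in thymus (log2 1.45 ± 0.27, limma-trend adjusted p = 0.0284).

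Among 20 adhesion, residency and egress genes none passed, and the median was 0.22. Cdh1, encoding E-cadherin, lay at 0, 113 and 0.884 in liver and 3112, 4998 and 707 in thymus (limma-trend adjusted p = 0.167). Cd101 lay at 53, 150.2 and 231 in liver and 4484, 471 and 1134 in thymus (limma-trend adjusted p = 0.277). Klf2, a factor that promotes exit from tissues, lay at 75.7, 28.3 and 55.7 in liver and 2697, 171 and 299.6 in thymus, with thymus replicate 1 far above the other 2 (limma-trend adjusted p = 0.321).

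Of 15 tested genes that sense or process extracellular nucleotides, 3 rose and 1 fell, against 0.217% and 0.137% of all tested genes. The members of this list were chosen with earlier results of these data known. The list median was 0.69, which turned to -0.09 with edgeR and -0.12 with DESeq2 on recovered reads. P2rx7, an ATP-gated channel, lay at 9921, 18357 and 15109 in liver and 881, 10.4 and 514 in thymus (log2 6.34 ± 1.10, limma-trend adjusted p = 0.0223). Art2b encodes a surface enzyme that ADP-ribosylates P2X7 when NAD is released. It lay at 3529, 7180 and 5359 in liver and 378, 283 and 376 in thymus, with tight thymus values (log2 3.90 ± 0.39, limma-trend adjusted p = 0.000221). Its neighbour Art2a-ps lay at 4519, 4773 and 5376 against 473, 510 and 70.2 (limma-trend adjusted p = 0.0112), and reads of these near copies may be split. Nt5e, which encodes the adenosine-producing enzyme CD73, fell: 605, 1076 and 304 in liver against 4946, 3078 and 3641 in thymus (log2 -2.71 ± 0.54, limma-trend adjusted p = 0.0439). The Nt5e call held in 5 of 23 alternatives and in 0 of the 9 fits without 1 library. P2rx4, a related channel, lay at 824, 162 and 201 in liver and 3.39, 3.5 and 52.7 in thymus without passing (limma-trend adjusted p = 0.191).

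Of 35 T cell receptor signalling genes, 1 rose and 1 fell, against 0.217% and 0.137% of all tested genes. Themis, a signalling adaptor known from thymocyte selection, lay at 5756, 3685 and 4234 in liver and 127, 1043 and 465 in thymus (log2 3.50 ± 0.60, limma-trend adjusted p = 0.0223). Ptpn6 encodes the inhibitory phosphatase SHP-1, and lay at 4229, 3444 and 3829 in liver and 16256, 12080.5 and 10409 in thymus (log2 -1.73 ± 0.32, limma-trend adjusted p = 0.0286). Neither gene had overlapping values. Themis and Ccr9 were also on the list of immature thymocyte genes, and both were higher in liver, while Rag1 was found only in thymus replicate 3.

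Among activation-induced nuclear factors, 2 of 21 rose, against 0.217% of all tested genes. The median was 0.25 (0.05 to 0.42 over the 5 scalings or tools). Irf4, a factor induced by receptor signals, lay at 2578, 887 and 1784 in liver and 0.0213, 1.18 and 127 in thymus (log2 7.93 ± 1.45, limma-trend adjusted p = 0.0284). Nr4a3, an immediate-early nuclear receptor, lay at 833, 913 and 897 in liver and 88.6, 32.4 and 15.1 in thymus (log2 4.60 ± 0.84, limma-trend adjusted p = 0.0284). Spleen was higher still for Nr4a3, at 6347, 1765 and 1717. Dusp2, a phosphatase induced by the same signals, lay at 826, 942 and 570.5 in liver and 2606, 8371 and 1289 in thymus without passing (limma-trend adjusted p = 0.206). None of 37 lineage and quiescence factors passed. Hhex lay at 8.67, 20.6 and 86 in liver and 649, 1752 and 1073 in thymus (limma-trend adjusted p = 0.142), and Bhlhe40 at 6008, 4310 and 4948 against 1679, 2901 and 1272 (limma-trend adjusted p = 0.142).

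Among named genes, those with few or no recovered reads in the thymus libraries gave the largest rises. Low expression and scarce transcripts missed by a library were not told apart. Mmp9, a gelatinase that cuts matrix, lay at 3429.5, 3033 and 3585 in liver and 0.0213, 0.0275 and 2.55 in thymus, at least 939-fold higher in liver against a limit of 3 reads per library (limma-trend adjusted p = 0.000221). Spleen held 592, 1633 and 2051, below every liver library. Casp1, the inflammasome caspase, lay at 684, 501 and 343 in liver with no thymus reads, at least 143-fold higher (limma-trend adjusted p = 0.0284). Pak6, a p21-activated kinase, lay at 371, 706 and 949.6 with no thymus reads, at least 189-fold higher (limma-trend adjusted p = 0.0112).

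Tefm, a mitochondrial transcription elongation factor, lay at 726, 184 and 283 in liver with no thymus reads, at least 111-fold higher (limma-trend adjusted p = 0.0323). Ms4a6d, a membrane protein gene, lay at 1045, 372 and 176 in liver against 0.0212, 1.19 and 0.0444, at least 149-fold higher (limma-trend adjusted p = 0.0429). The myeloid gene sum given above was also highest in liver replicate 1, and its part in Ms4a6d was not tested. Gimap7, a GTPase of lymphocyte survival, lay at 4669, 5498 and 4784 in liver and 29.2, 437 and 148 in thymus (log2 5.31 ± 0.73, limma-trend adjusted p = 0.00631). The other 7 GIMAP genes did not pass.

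The other rises were in genes of varied roles. Serpina3f, a serine protease inhibitor, lay at 2358, 2015 and 3853 in liver and 5.63, 1.18 and 238 in thymus (log2 7.45 ± 1.30, limma-trend adjusted p = 0.0227). Thymus replicate 3 was the highest thymus library for Serpina3f, as it was for Irf4 and Tmem273. Tmem273 lay at 2459, 2169.7 and 2087 in liver and 30.3, 3.5 and 71.5 in thymus (log2 6.69 ± 0.98, limma-trend adjusted p = 0.0112). Ckb, a creatine kinase, lay at 3152, 1932 and 3439 in liver and 192, 404 and 20.1 in thymus (log2 4.55 ± 0.85, limma-trend adjusted p = 0.0317). Tspan13, a tetraspanin, lay at 1997, 998 and 1682 in liver and 58.3, 68.3 and 292 in thymus (log2 3.82 ± 0.75, limma-trend adjusted p = 0.0435).

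Ly6a encodes the surface protein Sca-1, which interferons are known to induce. It lay at 3967, 9562 and 9240.4 in liver and 1059, 740.1 and 2227 in thymus (log2 2.55 ± 0.50, limma-trend adjusted p = 0.0406). Nabp1, which binds single-stranded DNA, lay at 4282, 8579.7 and 8975 in liver and 845, 1233 and 2308 in thymus (log2 2.37 ± 0.41, limma-trend adjusted p = 0.0223). Liver replicate 1 was the lowest liver library for both genes and still above all thymus libraries. Tspan13, Ly6a and Nabp1 lie outside the naming rule and were added after their values were seen. A further 3 rises were unnamed gene models.

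The falls outside these families included genes of the actin skeleton, lipids and growth factors. Capg, an actin-capping protein, lay at 50.4, 36 and 243 in liver and 4437, 4229 and 2719 in thymus (log2 -5.58 ± 0.94, limma-trend adjusted p = 0.0223). Ssh2, a phosphatase that activates cofilin, lay at 2625, 4135 and 2309 in liver and 10518, 18867 and 14981 in thymus (log2 -2.30 ± 0.36, limma-trend adjusted p = 0.0122). Ugcg, which makes glucosylceramide, lay at 17199, 10823 and 12447 in liver and 42269, 25933 and 38426 in thymus (log2 -1.39 ± 0.24, limma-trend adjusted p = 0.0223). Tgfa, a ligand of the EGF receptor, and Apol9a had no liver reads, and were at least 62.9-fold and 37.2-fold lower than in thymus. Apol9a alone of 57 interferon-stimulated genes passed, against 0.354% of all tested genes, and its near copy Apol9b may share reads. The median of those 57 genes was -0.11, with 10 lower and 4 higher in liver without overlap, against 6.13% and 9.54% of all tested genes. Ifit3 lay at 355, 464 and 195 in liver and 2262, 1782 and 1977 in thymus (log2 -2.65 ± 0.59, limma-trend adjusted p = 0.0822). Irgm1, an interferon-induced GTPase, lay at 3076, 2037 and 1968 in liver and 1025, 793 and 1574 in thymus (limma-trend adjusted p = 0.312).

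Effector genes of iNKT1 cells did not pass. Of 17 cytokine and chemokine genes none passed, and 5 were higher in liver without overlap, against 9.54% of all tested genes. The median was 0.98, or 0.65 with edgeR and 0.63 with DESeq2. Ifng, the type 1 cytokine, lay at 1458, 1282 and 2271 in liver and 2696, 24.3 and 1082 in thymus, with thymus replicate 2 far below the rest (limma-trend adjusted p = 0.532). Il4, the type 2 cytokine, lay at 959, 1043 and 697 in liver and 443, 335 and 604 in thymus (limma-trend adjusted p = 0.535). Plac8, on the list of iNKT2 and iNKT17 markers, lay at 1079, 1719 and 1832 in liver and 0.0213, 8.12 and 233 in thymus (log2 6.86 ± 1.46, limma-trend adjusted p = 0.0661).

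Abundant genes had smaller fitted changes. Among the 500 most abundant, 12 passed, 4 higher and 8 lower, against 0.217% and 0.137% of all tested genes, and the median was -0.15. Of these 500, 28.2% did not overlap, 43 higher and 98 lower, against 15.7% of all tested genes. Malat1, a nuclear long noncoding RNA, lay at 226267, 180276 and 186482 in liver and 355586, 473057 and 240827 in thymus (log2 -0.80 ± 0.18, limma-trend adjusted p = 0.0946). B2m, the light chain of MHC class I, lay at 129669, 171040.2 and 170195 in liver and 112060.1, 111837 and 104546 in thymus (log2 0.51 ± 0.16, limma-trend adjusted p = 0.212). Rac2, a GTPase of leukocyte movement, lay at 29668, 31159 and 25521 in liver and 14929, 9845 and 16753 in thymus (log2 1.09 ± 0.22, limma-trend adjusted p = 0.0565). Cd226, an activating receptor, lay at 13845, 16033 and 14626 against 9179, 3894 and 7038 (limma-trend adjusted p = 0.104).

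The fitted change varied with abundance. The median log2 change was 1.19 in the least abundant of 10 equal bins of genes, 1.30 in the third bin, 0.23 in the sixth, and -0.13 in the most abundant. Thymus replicates 1, 2 and 3 had reads for 10476, 11180 and 12222 genes, against 11781 to 13038 in liver. Replicate 3 thus lay inside the liver range, and the part of these numbers in the trend was not tested. List medians are therefore best read beside the abundance of their genes.

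**Figure D3:**
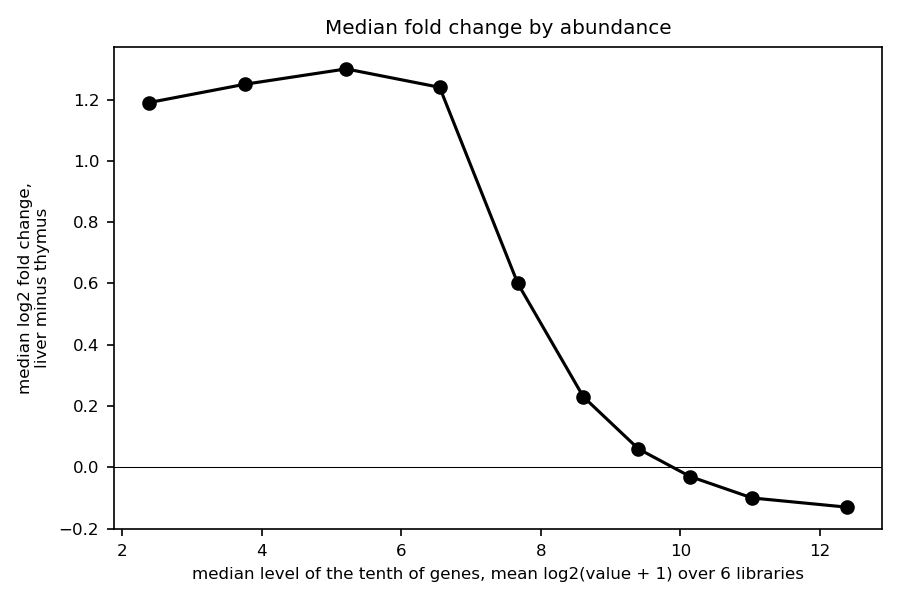
Median log2 fold change (liver minus thymus) of each of 10 abundance bins of the 12443 genes against the median level of that bin, the mean of log2(value + 1) over the 6 libraries. Points run from 1.19 at the lowest level to -0.13 at the highest.

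Pathway lists without a call still differed in where their members lay. Of 38 mitosis genes, 37 had a fitted change above 0, and the median was 2.77. Of the 38, 13 did not overlap, all higher in liver, against 9.54% of all tested genes. Mki67, a marker of cycling cells, lay at 7015, 3813 and 7571 in liver and 1670.4, 2098 and 2380.4 in thymus, the most abundant of them (log2 1.53, limma-trend adjusted p = 0.188). Ccnb1, the mitotic cyclin, lay at 67, 30 and 102 in liver and 0.021, 1.19 and 0.0439 in thymus. Both genes were chosen for mention after their values were seen. Of 42 DNA replication genes none passed, and the median was 1.13, or 0.36 with edgeR and 0.35 with DESeq2. Of 23 sterol synthesis genes none passed, and the median was 1.20, or 0.64 with both tools. The median level of the mitosis genes was 5.78 on the log2 scale, between abundance bins 3 and 4, where all genes had medians of 1.30 and 1.24. The replication and sterol genes had median levels of 7.78 and 8.18, near bins 5 and 6, where all genes had medians of 0.60 and 0.23.

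Housekeeping lists held no call. The 85 cytosolic ribosomal protein genes had a median of -0.11, 83 nuclear respiratory chain genes 0.20, 77 mitochondrial ribosomal protein genes 0.47, 47 proteasome genes 0.36 and 57 splicing factor genes -0.12, beside 0.27 over all genes. With edgeR and DESeq2 the mitochondrial ribosomal protein median was 0.06 and 0.03 and the proteasome median 0.15 and 0.12. Of the 13 mitochondrially encoded mRNAs listed, 7 were in the table, and these 7 had fitted changes below 0, with a median of -0.51 (-0.70 to -0.34 over the 5 scalings or tools), and all overlapped. Of 23 MHC class I presentation genes, 8 did not overlap, all higher in liver, against 9.54% of all tested genes. The median was 0.46 (0.27 to 0.63 over the 5 scalings or tools), with no call. Their median level was 12.28, near the most abundant bin, where 22.7% of genes did not overlap in either direction and the median change was -0.13. H2-K1 lay at 47207, 57141 and 49813 in liver and 28425, 22561 and 30646 in thymus (limma-trend adjusted p = 0.0612). Of 13 granule cargo genes none passed, and the median was -0.47 (-0.66 to -0.30 over the 5 scalings or tools). Ctsw, a cathepsin of cytotoxic cells, lay at 5351, 5216 and 4495 in liver and 21069.8, 7885 and 10611 in thymus (limma-trend adjusted p = 0.160).

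**Figure D4:**
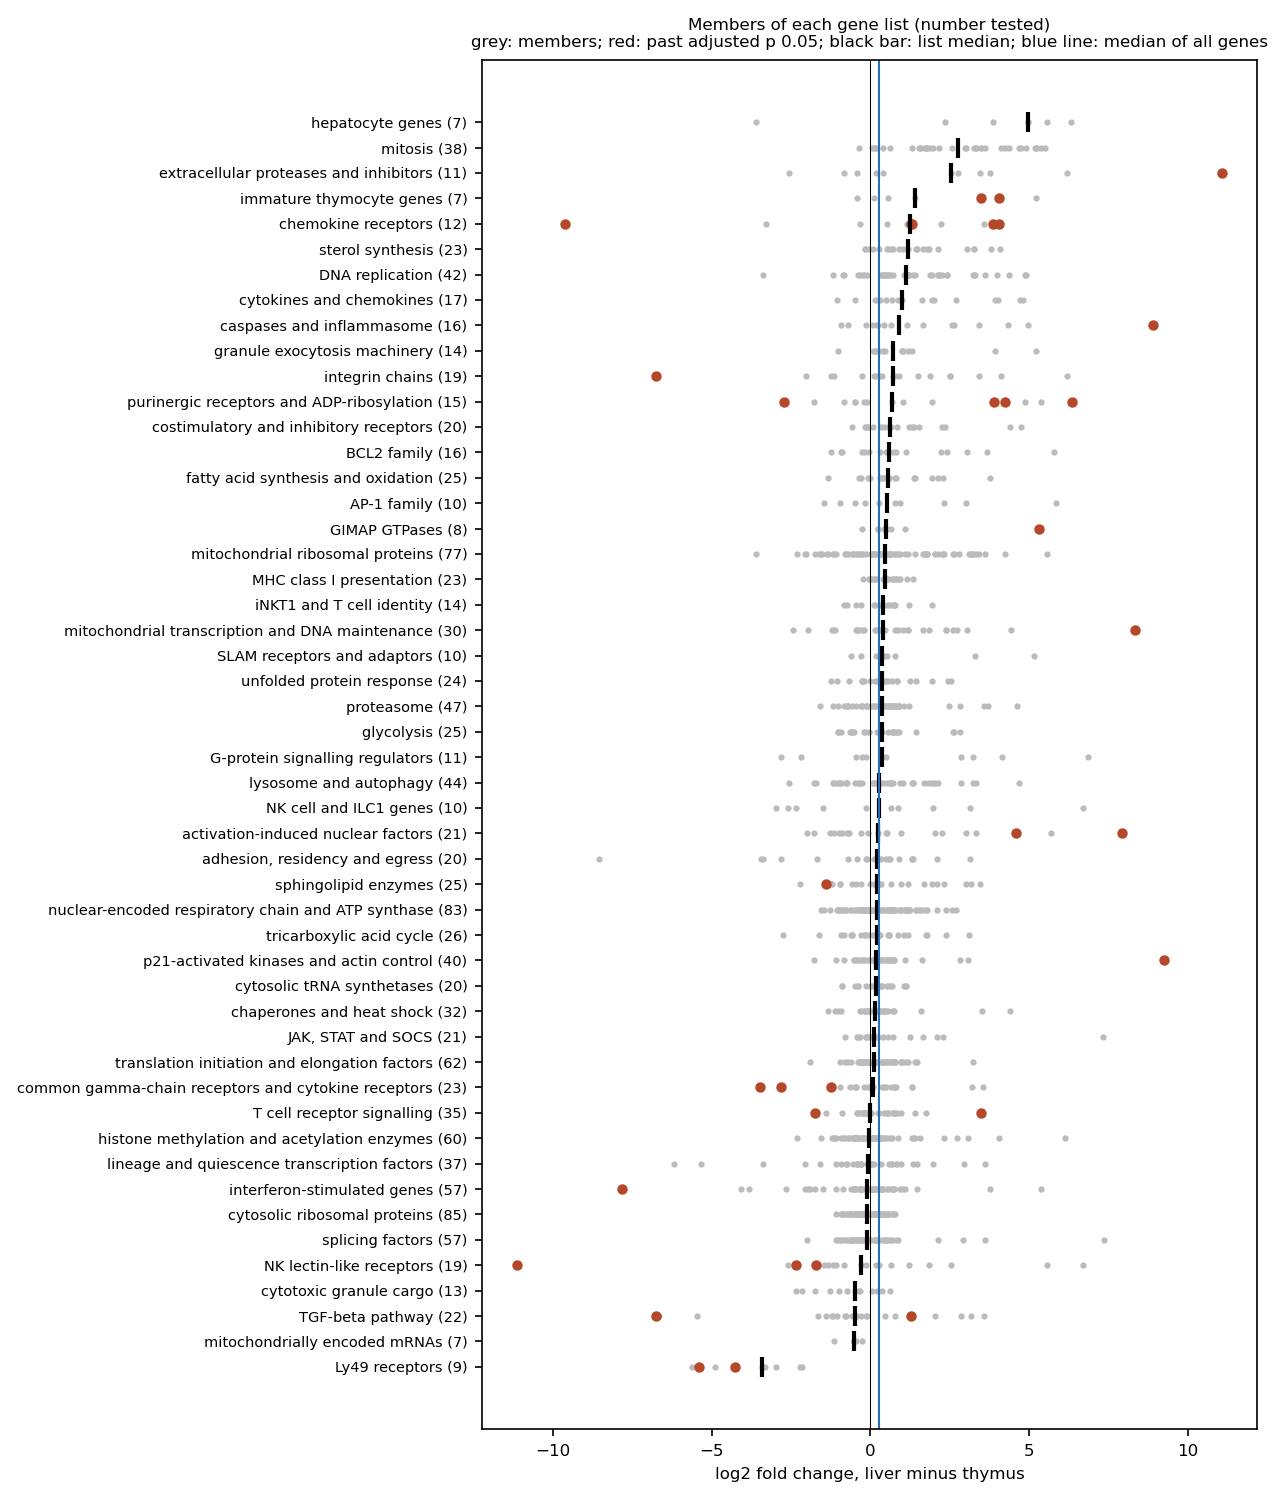
Fitted log2 fold change (liver minus thymus) of every tested member of each gene list with at least 7 tested members (grey points), with members past the test in red, the list median as a black bar and the all-gene median of 0.27 as a blue line. Ly49 receptors have the lowest median, at -3.42.

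Spleen values are printed only beside single genes, beside the liver endothelial sums and in the plot of called genes. The spleen libraries were nonetheless part of the fit. A comparison of spleen with thymus would share the 3 thymus libraries with the comparison above, and one with liver the 3 liver libraries, so no count of genes on the same side is given.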

How the data were processed

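RNA-seq values for iNKT1 cells of liver, thymus and spleen, 3 libraries each, were analysed. Per the labels' protocols, RNA came from a micro kit and libraries from an ultralow-input kit, sequenced on a NextSeq500. Per the submitters' processing notes, Trimmomatic 0.33, TopHat2 2.1.0, HTSeq 0.6.1, edgeR and the mm10 build were used. The authors deposited 1 normalised read count per gene and library, treated as a signal. Small values followed a small offset plus a step per read, both set per library, so reads were recovered by rounding. Of the low values, 73.1% lay within 0.1 reads of a whole number in liver replicate 3 and 98.2% to 100% in the other libraries.

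Symbols matched 13359 of 14004 genes, and positions came from GENCODE on GRCm38. The test was limma-trend (limma 3.58.1, R 4.3.3) on log2(value + 1) over 9 libraries with a term per tissue, two-sided. It was tested on simulated data in which each gene had the same dispersion in all tissues. The unequal spread of the real tissues was therefore not covered. Recovered reads were tested with edgeR 4.0.16 and DESeq2 1.42.0 as alternatives, among 23 in all. Groups overlap unless every value of 1 tissue exceeds every value of the other, with values under 1 taken as equal. Folds at or under 3 reads in each library are lower bounds, covering counting error only. Named genes were the 14 largest rises and 14 largest falls among called genes with a mean of at least 10 and no overlap, the most abundant genes, called list members with up to 6 others of a list, and cell type markers. Some items are not reported here by name, though counts and sums include them. Members and lists were chosen with earlier results of these data known.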

Additional observations from a re-analysis of the deposited data

How the results depend on the processing

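All 44 called genes kept their direction in every one of the 23 alternatives. The adjusted p stayed under 0.05 throughout for 4 of them, Il7r, Mmp9, Klrd1 and Art2b, and for 34 in at least as many alternatives as not. The number of calls was 12 with the 6 liver and thymus libraries alone, 12 with libraries numbered 1 and 3, 17 with edgeR and 412 with DESeq2 on recovered reads, against 44. The edgeR calls were all among the 44, and DESeq2 called all 44. Leaving out 1 library gave between 7 and 159 calls. The lowest counts came without liver replicate 2 or 3 (7 each) or 1 (9), and the highest without thymus replicate 3 (159, 128 of them higher). Leaving out spleen replicate 2 or 3 gave 24 and 28. The cause of these differences was not tested. Of the 44, 5 passed in all 9 of these fits.

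Scaling moved the all-gene median from 0.27 to 0.08 with trimmed-mean factors, 0.41 with equal totals, 0.43 with equal totals without mitochondrial genes, -0.05 with edgeR and -0.08 with DESeq2. The share of calls that were higher in liver was 61.4%, falling to 19 of 38 calls with trimmed-mean factors and rising to 35 of 50 with equal totals without mitochondrial genes. Of 55 list medians, 21 changed sign under at least 1 of these 5 scalings or tools. Among genes that did not pass, the fitted change of Tbx21 turned to -0.08 with trimmed-mean factors, -0.12 with edgeR and -0.16 with DESeq2, and ran from -0.29 to 0.73 when 1 library was left out. Ifng ran from -0.08 to 3.29 when 1 library was left out, and Cd3e was -0.00 with libraries 1 and 3. Of 1264 list medians recomputed, 102 moved by more than the spread between libraries. With the replicate number as a block, 41 genes were called, 39 of them among the 44. The numbers were not taken as pairs in the main fit. Deviations of same-numbered liver and thymus libraries correlated at 0.0706, 0.0115 and 0.0462, and those of differently numbered ones at -0.071 to 0.0491. Libraries numbered 2 were also those with high Xist and few Y-linked reads in both tissues. These values do not settle whether the numbers mark pairs. Liver replicate 3, at 3878084 reads, limits what can be seen in scarce genes.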
